A study of Mus musculus with 70 samples.

Results

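The neurotrophin genes described here are 2 ligands, Bdnf and Ntf3, and 3 receptors, Ntrk2, Ntrk3 and Ngfr. They were chosen by gene symbol, and all 5 members were found among the 34677 genes of the gene-level table. The series profiled energy balance brain regions of the mouse by RNA sequencing, in 70 libraries that fall into 24 groups. Adult C57BL/6 mice at P56 gave 57 libraries from 18 punched regions, E14.5 C57BL/6 embryos gave 9 libraries from 4 dissected territories, and 2 clonal lines of C57BL/6 mouse embryonic stem cells (mESCs) gave 4 libraries. The labels name no transgene, deletion or treatment for any group, so every comparison is between places, ages or cell sources. C57BL/6 is the labels' name, and the study's methods give the substrain C57BL/6NTac for the adult males and the embryos.

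Neurotrophins are small secreted growth factors that support the survival of neurons during development and adjust synapses in the adult brain. BDNF binds the receptor tyrosine kinase TrkB (Ntrk2), NT-3 (Ntf3) binds mainly TrkC (Ntrk3), and the p75 receptor (Ngfr), which has no kinase, binds all neurotrophins and their precursors. In the hypothalamus and hindbrain the BDNF and TrkB pair is known for restraining food intake, and loss of either gene leads to obesity in mice and humans.

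The adult regions were the anterior cingulate area (ACA), frontal pole cortex (FRP) and entorhinal area (ENT) of the cortex, the nucleus accumbens (ACB), and the arcuate (ARH), ventromedial (VMH), dorsomedial (DMH) and paraventricular (PVH) nuclei and the lateral area (LHA) of the hypothalamus. Further caudally they were the ventral tegmental area (VTA), parabrachial nucleus (PB), nucleus of the solitary tract (NTS), dorsal-vagal complex (DVC), cerebellar nuclei (CBN), and the cerebellar lobules CENT2, CUL4-5, UVU and FL (central lobule II, culmen, uvula and flocculus). The embryonic groups were forebrain (F), midbrain (M), hindbrain (H) and the terminal and peduncular hypothalamus (THy-PHy), and the mESC lines were B6-1 and B6-2. A punch takes neurons, glia and passing fibres together, each brain library pools tissue of several mice, 1 ACB library came from a single mouse, and F is a single library. The mESC lines are clones, so their spread is between cultures of a clone. Libraries of different adult regions were punched from the same set of mice, so they are not all from separate animals, which no fit here accounts for. P-values below therefore measure the spread between pooled punches or cultures.

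Depth ran from 9074581 to 22229582 estimated counts per library, with a median of 17016935. There were 2 libraries that stood apart: VTA replicate 1, with 39.6% of its TPM in mitochondrial genes, and H replicate 1, with 22.6% and the lowest depth, against a median of 7.49% over the series. Gene-level results of the members that rest on VTA replicate 1, and gene and transcript results that rest on H replicate 1, are given with and without it. Marker genes of the labelled tissues were high in the areas used here: the 4 excitatory cortical markers were all higher in cortex than in the other adult regions, and 8 of 9 hypothalamic markers were higher in hypothalamus.

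Ntrk2 and Ntrk3 are each transcribed into a full-length receptor with the intracellular kinase and into truncated receptors without it, and the 2 kinds part at a splice junction within the coding sequence. The coding ends, from the GENCODE M21 transcripts on GRCm38, are printed because Ntrk2-201 and Ntrk2-202, the transcripts that the Ntrk2 results turn on, differ there. Ntrk2 (ENSMUSG00000055254.15) spans chr13:58806569-59133970 on the plus strand of GRCm38, and its full-length transcript Ntrk2-201 and truncated transcript Ntrk2-202 share 1393 coding bases. Below, the last 30 shared coding bases are in lower case and the bases after the split are in capitals, 60 of the 1073 that follow in Ntrk2-201 (chr13:58985802-58985861) and all 38 that follow in Ntrk2-202, stop codon included (chr13:58932023-58932060).
Ntrk2-201: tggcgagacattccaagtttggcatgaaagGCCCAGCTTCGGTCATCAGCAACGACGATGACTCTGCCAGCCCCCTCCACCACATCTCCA
Ntrk2-202: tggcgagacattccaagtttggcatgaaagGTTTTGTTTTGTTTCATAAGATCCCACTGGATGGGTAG
The full-length protein has 821 residues and the truncated one 476.

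Ntrk3 (ENSMUSG00000059146.12) lies on the minus strand at chr7:78175959-78738012. Its full-length transcript Ntrk3-201 encodes 825 residues and its truncated transcript Ntrk3-202 encodes 612, and they share 1585 coding bases. Capitals again mark what follows the split, 60 of 893 coding bases for Ntrk3-201 (chr7:78260355-78260414) and the whole tail of 254 coding bases for Ntrk3-202, which lies within chr7:78302629-78304426.
Ntrk3-201: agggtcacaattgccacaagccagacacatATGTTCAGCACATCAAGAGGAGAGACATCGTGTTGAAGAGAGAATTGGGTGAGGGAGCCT
Ntrk3-202: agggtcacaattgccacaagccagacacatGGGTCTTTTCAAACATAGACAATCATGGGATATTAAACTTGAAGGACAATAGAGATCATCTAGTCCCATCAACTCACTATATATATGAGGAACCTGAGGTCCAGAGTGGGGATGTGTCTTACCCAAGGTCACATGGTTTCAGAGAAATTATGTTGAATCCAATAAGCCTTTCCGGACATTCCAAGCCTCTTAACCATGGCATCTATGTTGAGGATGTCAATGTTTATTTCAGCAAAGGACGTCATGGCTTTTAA
The tail of Ntrk3-202 is spliced from more than 1 exon and, unlike that of Ntrk2-202, is long enough to hold many reads of its own.

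The other 3 genes are compact by comparison. Bdnf (ENSMUSG00000048482.14) lies at chr2:109674700-109727007 on the plus strand with 11 annotated transcripts, which differ in their first exon and share the exon that encodes the protein. Exons of Gm45346, a gene on the opposite strand, cover 896 of the 6217 exonic bases of Bdnf, and since no use of strand is stated for the quantification, reads of the 2 genes cannot be told apart there. Ntf3 (ENSMUSG00000049107.13) lies at chr6:126101412-126166910 on the minus strand with 3 transcripts. Ngfr (ENSMUSG00000000120.6) lies at chr11:95568818-95587735 on the minus strand with 1 transcript.

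Levels are given as TPM, a relative abundance that divides the reads of each transcript by its length and scales every library to the same total. On this scale the receptors Ntrk2 and Ntrk3 were far more abundant than the ligands in every adult library: Ntrk2 ran from 102 to 376 TPM (median 172, n = 57) and Ntrk3 from 26.9 to 147 TPM (median 65.0). Both minima were those of VTA replicate 1. Without that library the lowest values were 108 TPM for Ntrk2, in FL replicate 3, and 36.4 TPM for Ntrk3, in CBN replicate 1. Bdnf ran from 0.326 to 24.5 TPM (median 5.79), Ngfr from 0.103 to 19 TPM (median 2.64) and Ntf3 from 0 to 11.1 TPM (median 1.17, listed at 0 in 2 libraries). The group with the highest mean was ACA for Bdnf, UVU for both Ntf3 and Ntrk3, ARH for Ntrk2 and embryonic H for Ngfr. Of the 23 pairs of neighbours in the order of group means, the libraries did not overlap in 5 for Bdnf, 8 for Ntrk2 and 3 each for Ntf3, Ntrk3 and Ngfr, so that most neighbouring groups do not differ beyond their spread.

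**Figure D1:**
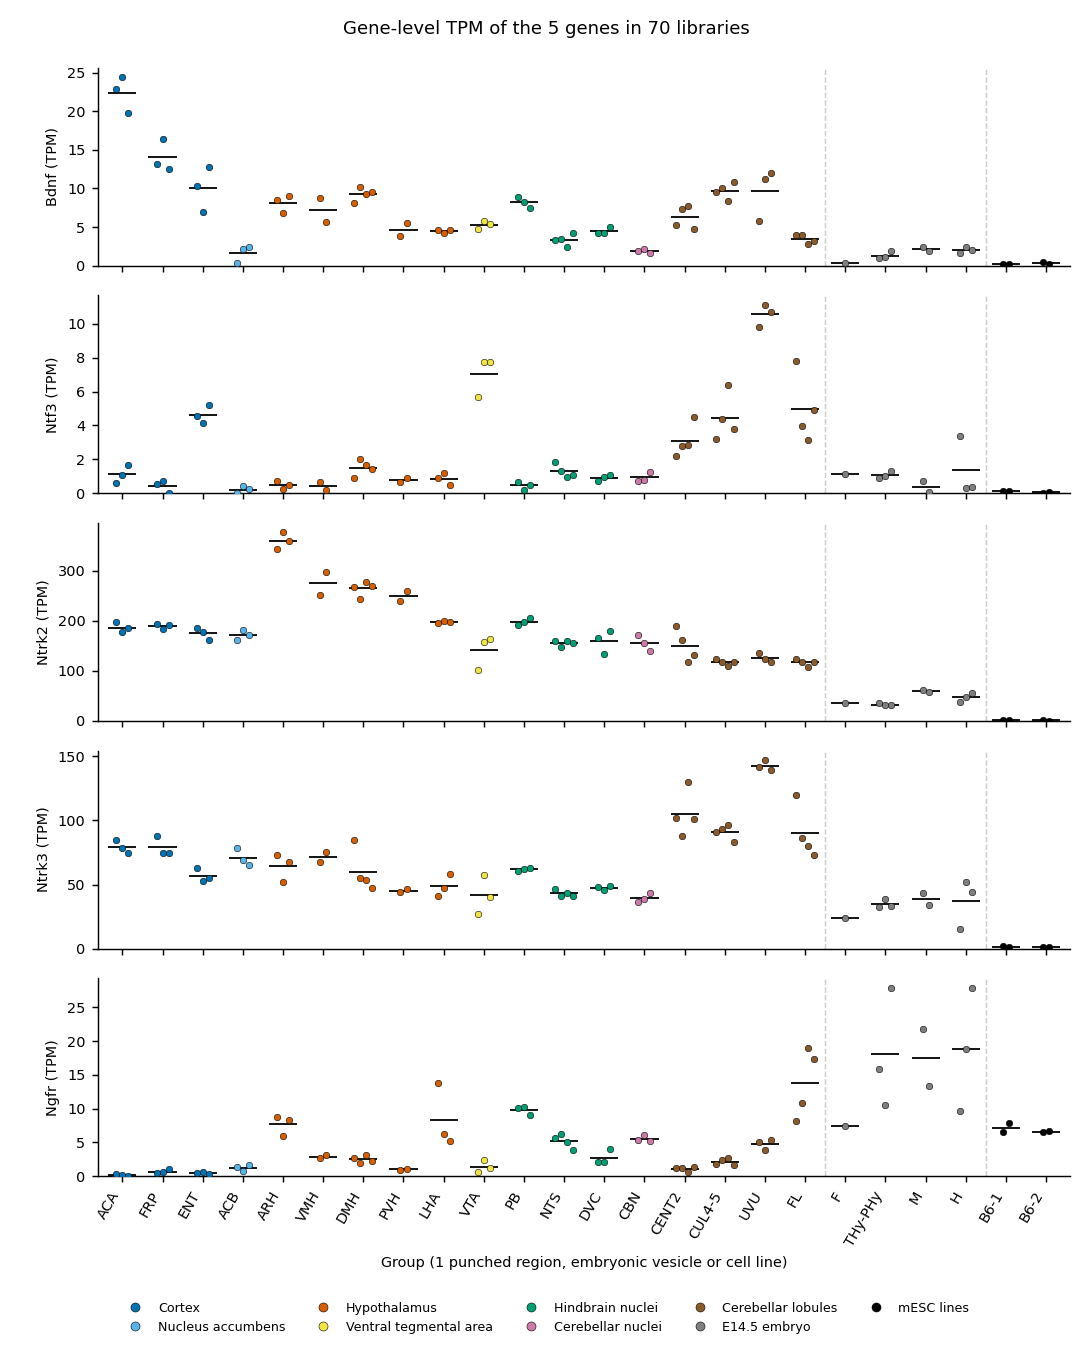
TPM (y axis, linear, from 0, 1 panel per gene) of Bdnf, Ntf3, Ntrk2, Ntrk3 and Ngfr in 24 groups (x axis); each point is 1 library, horizontal bars are group means, and dashed lines part adult, embryonic and mESC groups. Bdnf is highest in ACA (19.8 to 24.5 TPM), Ntrk2 in ARH (343 to 376 TPM), Ntf3 in UVU (9.82 to 11.1 TPM), Ntrk3 in UVU (139 to 147 TPM), and Ngfr is lowest in ACA (0.103 to 0.324 TPM).

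Comparisons between groups used estimated counts of all genes in 1 edgeR quasi-likelihood fit, with adjusted p-values over the 19980 genes tested, and a gene was called where the adjusted p was under 0.05 and the log2 fold change over 1 in size. The 4 broad comparisons set an area against the mean of the other adult regions. In bulk tissue such as this, fewer cells of a type and less RNA per cell cannot be told apart.

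Bdnf, the main activity-dependent neurotrophin of the forebrain, was highest in cortex. Its 3 ACA libraries held 22.9, 24.5 and 19.8 TPM, its FRP libraries 13.2, 16.5 and 12.5 TPM, and its ENT libraries 10.3, 6.93 and 12.8 TPM. All ACA libraries lay above all FRP libraries, FRP and ENT overlapped, and 2 ENT libraries lay within the range of the adult regions outside cortex. Over the 9 cortical libraries Bdnf ran from 6.93 to 24.5 TPM (median 13.2), against 0.326 to 12.01 TPM (median 5.36) in the other 48 adult libraries. Bdnf was 3.09-fold higher in cortex (log2 fold change 1.63 ± 0.12 (SE), adjusted p = 2.12e-17, edgeR), 1 of the 2 called among the 5 members there, where 16.1% of all genes tested were called. ENT against ACA and FRP did not pass the same test (log2 fold change -0.73 ± 0.26 (SE), adjusted p = 0.0582), and without ENT replicate 3 Bdnf was called lower there (-1.05, adjusted p = 0.021, edgeR).

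Next in order stood CUL4-5, UVU and DMH, with ranges that overlapped. The 4 CUL4-5 libraries held 9.52, 10.1, 8.41 and 10.9 TPM, the 3 UVU libraries 5.72, 11.2 and 12.01 TPM, and the 4 DMH libraries 8.10, 10.2, 9.25 and 9.57 TPM. Within the hypothalamus the DMH libraries lay above those of PVH (3.79 and 5.51 TPM) and LHA (4.62, 4.22 and 4.56 TPM), and overlapped with ARH (8.57, 6.83 and 9.03 TPM) and VMH (8.78 and 5.68 TPM). Neither the hypothalamus as a whole (log2 fold change 0.01 ± 0.12, adjusted p = 1.0) nor VMH against the other 4 hypothalamic regions (0.16 ± 0.28, adjusted p = 0.895, edgeR) passed the test for Bdnf. No member was called in VMH by edgeR (0 of 5, with 1.47% of all genes called), and none by DESeq2. At an unadjusted p under 0.05 there was 1 member, Ntrk3 (0.37 ± 0.13, adjusted p = 0.0936, edgeR), named after its values were seen.

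The lowest adult groups for Bdnf were ACB and CBN. ACB libraries held 0.326, 2.20 and 2.47 TPM and CBN libraries 1.88, 2.11 and 1.61 TPM, while CENT2, CUL4-5, UVU and FL libraries held 2.76 to 12.01 TPM. Every CBN library lay below every library of the lobules around it. Bdnf was 4.04-fold lower in ACB than in the mean of the other 17 adult regions (log2 fold change -2.01 ± 0.27, adjusted p = 1.87e-08) and 3.14-fold lower in CBN than in the lobules (-1.65 ± 0.28, adjusted p = 1.37e-06, both edgeR). ACB had 2 of 5 members called (12.8% of all genes) and CBN 3 of 5 (16.5% of all genes).

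The first exons of Bdnf begin at several separate start sites, which are known to answer to their own promoters. The 4 described below are Bdnf-201, which starts at the most upstream exon, Bdnf-210, which shares its start with Bdnf-207 and Bdnf-208, Bdnf-209 and Bdnf-205. The promoter windows of Bdnf-201 and Bdnf-209 are printed because these 2 transcripts took a larger share of Bdnf in cortex. The windows are the 250 bases before each start in RefSeq (GRCm38.p6, plus strand), at chr2:109674450-109674699 and chr2:109692186-109692435, with capitals for TGACG or its reverse complement CGTCA, the core of the cAMP response element.
Bdnf-201: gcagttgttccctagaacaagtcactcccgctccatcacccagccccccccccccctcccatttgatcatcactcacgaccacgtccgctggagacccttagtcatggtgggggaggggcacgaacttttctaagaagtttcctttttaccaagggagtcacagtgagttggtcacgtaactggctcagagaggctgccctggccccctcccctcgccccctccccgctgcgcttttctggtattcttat
Bdnf-209: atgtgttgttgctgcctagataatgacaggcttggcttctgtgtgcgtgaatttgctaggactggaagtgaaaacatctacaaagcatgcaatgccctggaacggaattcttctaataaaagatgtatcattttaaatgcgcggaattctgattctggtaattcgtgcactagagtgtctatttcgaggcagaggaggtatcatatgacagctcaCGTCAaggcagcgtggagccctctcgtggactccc
The Bdnf-209 window holds 1 match, which begins 35 bases before the start, and the Bdnf-201 window holds none. The match is a description of letters: 17.8% of 32851 promoter windows of the same length hold TGACG or CGTCA, and 1.55% hold the palindrome TGACGTCA, in which both overlap.

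Bdnf-201 was highest in ACA and low in the lobules. ACA libraries held 7.79, 6.81 and 3.99 TPM of it and DMH libraries 1.81, 2.09, 2.12 and 2.94 TPM, while the 15 libraries of the lobules held 0 to 0.605 TPM (median 0.270). DMH overlapped with PB (1.24 to 2.30 TPM), and LHA (0.338 to 0.672 TPM) with the lobules. Bdnf-205 was high in a lobule and in cortex: its highest group was CUL4-5, with 5.58, 6.22, 5.16 and 5.18 TPM, and FRP followed with 4.02, 5.90 and 4.96 TPM. Bdnf-209 was highest in ACA (8.90, 7.17 and 6.67 TPM), above FRP (5.29, 3.30 and 3.93 TPM). The ranges of ACA and FRP did not overlap for Bdnf-209 and overlapped for Bdnf-205. Bdnf-210 had its highest mean in DMH (2.54, 1.35, 2.91 and 2.54 TPM), with overlap with PB (2.18, 1.75 and 1.79 TPM).

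Tested as a share, which sets each transcript against the rest of its gene (limma diffSplice, 64947 transcripts), Bdnf-201 rose in cortex (log2 difference 1.77 ± 0.37, adjusted p = 6.78e-05) and in hypothalamus (1.26 ± 0.40, adjusted p = 0.0396) and fell in the lobules (-2.77 ± 0.53, adjusted p = 8.13e-06). Bdnf-209 rose as a share in cortex (1.62 ± 0.35, adjusted p = 0.000133, limma), and Bdnf-205 rose in the lobules (1.50 ± 0.30, adjusted p = 2.41e-05, limma). The hypothalamic call for Bdnf-201 was lost when any 1 of 20 libraries was left out, namely ACA 3, ACB 1, ARH 1 and 3, CBN 2 and 3, CUL4-5 2 and 3, DMH 4, DVC 1, ENT 2, FL 2, LHA 1 and 3, NTS 1, PVH 1 and 2, UVU 3, and VMH 1 and 2 (1.12 to 1.27, adjusted p from 0.0509 to 0.113, limma). Of the 6 Bdnf transcripts tested, 2 were called in cortex (7.73% of all transcripts), 1 in hypothalamus (4.35%) and 2 in the lobules (12.8%). At the level of the transcript itself, 3 of 6 were higher in cortex (edgeR, 10.7% of 72026 transcripts called): Bdnf-201 by 2.94 ± 0.44 (adjusted p = 2.87e-07), Bdnf-209 by 2.44 ± 0.49 (adjusted p = 0.000108) and Bdnf-205 by 1.27 ± 0.46 (adjusted p = 0.0409) on the log2 scale.

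These transcripts rest on few reads of their own. Of the 31-base words of each transcript, the share found in no other transcript of the 5 genes was 15.1% for Bdnf-201, 8.7% for Bdnf-205, 8.5% for Bdnf-209, 2.7% for Bdnf-210 and 2.1% for Bdnf-211. In ACB, where gene-level Bdnf was lowest, 4 of 6 Bdnf transcripts were called as shares (5.91% of all transcripts), and 3 of these 4 were listed at 0 in 2 or 3 of the 3 libraries. They are given no fold for that reason.

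**Figure D2:**
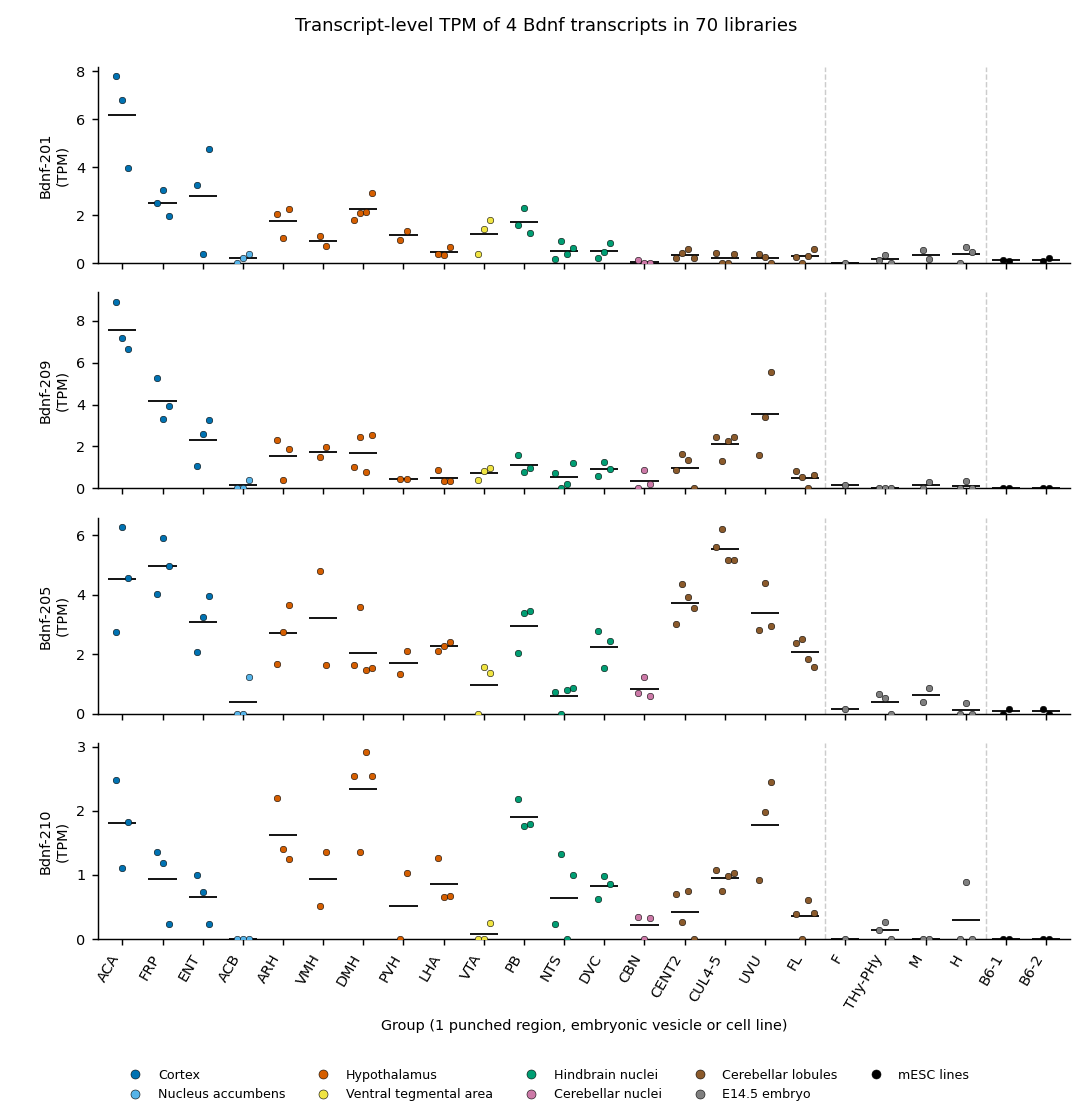
TPM (y axis, linear, from 0, 1 panel per transcript) of Bdnf-201, Bdnf-209, Bdnf-205 and Bdnf-210 in 24 groups (x axis); points are libraries and bars group means. Bdnf-201 lies at or under 0.605 TPM in all 15 lobule libraries, where Bdnf-205 runs from 1.58 to 6.22 TPM.

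Ntf3 was highest in UVU and VTA. NT-3, its product, is known for guiding cerebellar and proprioceptive development. The 3 UVU libraries held 9.82, 11.1 and 10.7 TPM, the 3 VTA libraries 5.67, 7.73 and 7.72 TPM, and the 3 ENT libraries 4.55, 4.14 and 5.21 TPM. All UVU libraries lay above all VTA libraries on the TPM scale, and all VTA above all ENT libraries. The order of the first 2 depends on the scale: as CPM scaled by TMM, a library-size correction that discounts a few very abundant genes, VTA came first (mean 6.89 against 6.50 in UVU). That order rests on VTA replicate 1: the VTA libraries held 8.72, 5.52 and 6.43 CPM and the UVU libraries 6.09, 6.90 and 6.51, so that only VTA replicate 1 lay above all of UVU. Without VTA replicate 1, the library rich in mitochondrial RNA, Ntf3 in VTA stayed 2.86 above the other 17 adult regions on the log2 scale (adjusted p = 2.23e-08), against 3.04 ± 0.31 with it (8.25-fold, adjusted p = 1.27e-11, edgeR). It was the only 1 of 5 members called in VTA, where 10.5% of all genes were called.

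Within the cortex Ntf3 was high in 1 region of 3. ENT lay at 4.14 TPM or above, ACA at 0.620, 1.09 and 1.68 TPM, and FRP at 0.545, 0.748 and 0 TPM. ENT did not overlap with either, and Ntf3 was 6.90-fold higher in ENT than in ACA and FRP (log2 fold change 2.79 ± 0.50, adjusted p = 4.16e-05, edgeR), 1 of 5 members called (3.66% of all genes). The cortex as a whole against the other adult regions did not pass the test (0.02 ± 0.26, adjusted p = 1.0, edgeR).

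In the cerebellum Ntf3 was high in the lobules and low in the nuclei. Over the 15 lobule libraries Ntf3 ran from 2.17 to 11.1 TPM (median 4.37), against 0 to 7.73 TPM (median 0.897) in the other 42 adult libraries, and it was 4.89-fold higher (log2 fold change 2.29 ± 0.21, adjusted p = 2.33e-14, edgeR), 1 of 5 members called (18% of all genes). CENT2 libraries held 2.17, 2.78, 2.84 and 4.50 TPM and CUL4-5 libraries 3.18, 4.37, 6.38 and 3.79 TPM. Every UVU library lay above these 8, and Ntf3 was 2.87-fold higher in UVU than in CENT2 and CUL4-5 (1.52 ± 0.43, adjusted p = 0.0304, edgeR). That call was lost when any 1 of 7 libraries was left out, namely UVU replicates 1, 2 and 3, CENT2 replicates 1 and 2, and CUL4-5 replicates 1 and 4, with log2 fold changes of 1.44 to 1.56 and adjusted p from 0.0531 to 0.141 (edgeR). FL libraries spread from 3.15 to 7.79 TPM. In CBN, below the lobules, Ntf3 fell to 0.741, 0.809 and 1.27 TPM, 4.71-fold lower (-2.24 ± 0.53, adjusted p = 0.00034, edgeR).

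Ntf3 was low in the hypothalamus and lowest in ACB. The 14 hypothalamic libraries ran from 0.196 to 1.99 TPM (median 0.804), against 0 to 11.1 TPM (median 1.85) in the other 43, with overlap. Ntf3 was 2.56-fold lower there (-1.36 ± 0.28, adjusted p = 3.35e-05), 1 of 5 members called (8.84% of all genes), a call lost to the fold limit when limma was run on log2(TPM + 0.5), where the value was -0.99 (adjusted p = 7.62e-08). ACB libraries were listed at 0, 0.412 and 0.239 TPM, and Ntf3 was lower there by 2.72 ± 0.63 on the log2 scale (adjusted p = 0.000339, edgeR). At these levels a library holds few reads of Ntf3, and a listing at 0 does not show that the gene was off.

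Ntrk2, which encodes TrkB, was the most abundant member in every adult group except UVU, where Ntrk3 was higher (mean 143 against 125 TPM), and had its highest levels in the hypothalamus. ARH libraries held 343, 376 and 360 TPM, VMH libraries 251 and 298 TPM, DMH libraries 267, 244, 277 and 270 TPM, PVH libraries 239 and 259 TPM, and LHA libraries 195, 199 and 197 TPM. ARH stood above every other group without overlap, VMH, DMH and PVH overlapped with each other and stood above the remaining groups, and LHA overlapped with PB (191, 198 and 205 TPM). As CPM scaled by TMM, the means of ARH, VMH, DMH and PVH stayed first. LHA (mean 798) then came below ACA (834), FRP (816) and ENT (805). Over the 14 hypothalamic libraries Ntrk2 ran from 195 to 376 TPM (median 263), against 102 to 205 TPM (median 160) in the other 43 (lowest 108 TPM without VTA replicate 1). Ntrk2 was 1.58-fold higher in hypothalamus (log2 fold change 0.66 ± 0.04, adjusted p = 1.06e-19, edgeR), a difference far beyond the spread and under the fold limit for a call. In the lobules Ntrk2 was 1.81-fold lower (-0.85 ± 0.04, adjusted p = 6.3e-24), also under the limit.

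The 2 kinds of Ntrk2 transcript had different maps. Full-length Ntrk2 (Ntrk2-201 with Ntrk2-207, the 2 transcripts that encode 821 residues) was highest in cortex, at 145, 121 and 130 TPM in ACA and 118, 119 and 121 TPM in FRP. Truncated Ntrk2 (Ntrk2-202 with Ntrk2-204, both 476 residues) was highest in ARH, at 237, 280 and 255 TPM, and lowest of the adult groups in ACA, at 48.0, 51.6 and 51.5 TPM. All 14 hypothalamic libraries held more Ntrk2-202 (127 to 280 TPM, median 162) than any of the other 43 adult libraries (48.0 to 126 TPM, median 75.5), while for Ntrk2-201 the hypothalamus (53.5 to 78.0 TPM, median 71.8) lay below most of the cortex (75.8 to 110 TPM, median 98.1). On the sum of both truncated transcripts the areas overlapped, since CBN replicate 1 (128.5 TPM) lay above all LHA libraries (126.6 to 127.9 TPM). TrkB without its kinase is known chiefly from astrocytes, where it binds BDNF without the kinase cascade.

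As a share of both kinds, full-length Ntrk2 ran, over the adult groups, from a group mean of 22.9% in CBN to one of 72.3% in ACA. ACA had 75.2%, 70.0% and 71.7%, FRP 62.7%, 66.1% and 64.9%, ENT 62.1%, 58.2% and 49.9%, and ACB 51.5%, 51.3% and 51.7%. All ACA libraries lay above all FRP libraries, and ACB, the striatal region, lay between cortex and the rest. The other end of the order held ARH, at 29.2%, 24.1% and 28.4%, VTA, at 23.1%, 33.4% and 26.7%, and CBN, at 23.0%, 24.3% and 21.5%. Over the 9 cortical libraries the share ran from 49.9% to 75.2% (median 64.9%), and over the other 48 adult libraries from 21.5% to 51.7% (median 35.2%), so that only 1 ENT library reached into the range of the rest.

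By the share test Ntrk2-201 rose in cortex (log2 difference 1.65 ± 0.08, adjusted p = 2.2e-59) and Ntrk2-202 fell (-1.73 ± 0.09, adjusted p = 6.11e-60, limma), 2 of 8 Ntrk2 transcripts called (7.73% of all transcripts). Of the same 8, 3 were called higher in the lobules (12.8% of all transcripts). CBN (4.69%) and ENT (2.83%) each had 1 higher and 2 lower. ACB had 1 higher (5.91%), VTA 1 lower (12.1%) and hypothalamus 1 lower (4.35%). The hindbrain nuclei (5.84%), UVU (0.908%) and VMH (1.34%) had none. In CBN Ntrk2-201 fell against the lobules (-1.01 ± 0.19, adjusted p = 3.55e-05) beside 0.95 ± 0.18 for Ntrk2-202 (adjusted p = 2.37e-05, limma), which passed the p and not the fold limit (4.69% of all transcripts called). Both lie at that limit: Ntrk2-201 fell under it (-0.965 to -0.998) without any 1 of CBN replicates 1 and 3, CENT2 replicates 3 and 4, CUL4-5 replicate 3 and UVU replicates 2 and 3, and Ntrk2-202 rose over it (1.003) without CBN replicate 3. In the hypothalamus the same shares moved by -0.57 ± 0.07 (adjusted p = 2.91e-13) and 0.58 ± 0.07 (adjusted p = 1.04e-14, limma), under the fold limit. When diffSplice was run on log2(TPM + 0.5), which sets each transcript against the others with equal weight, the cortical value of Ntrk2-202 was -0.82 (adjusted p = 0.0578) and the hypothalamic value of Ntrk2-201 was 0.25 (adjusted p = 0.796, limma). As levels, Ntrk2-201 was 1.12 ± 0.07 higher in cortex (adjusted p = 7.5e-19) and Ntrk2-202 0.99 ± 0.06 higher in hypothalamus (adjusted p = 6.0e-19), just short of a call that it reached without VMH replicate 1 (1.01), against 0.40 ± 0.06 for Ntrk2-201 there (adjusted p = 2.8e-06, all edgeR, log2 scale, 5.32% of all transcripts called). Ntrk2-201 and Ntrk2-202 have 48.0% and 58.8% of their 31-base words to themselves, Ntrk2-207 has 0.4% and Ntrk2-204 has 0.0%, so only the sums of each kind, not the pairs within it, are told apart by reads.

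**Figure D3:**
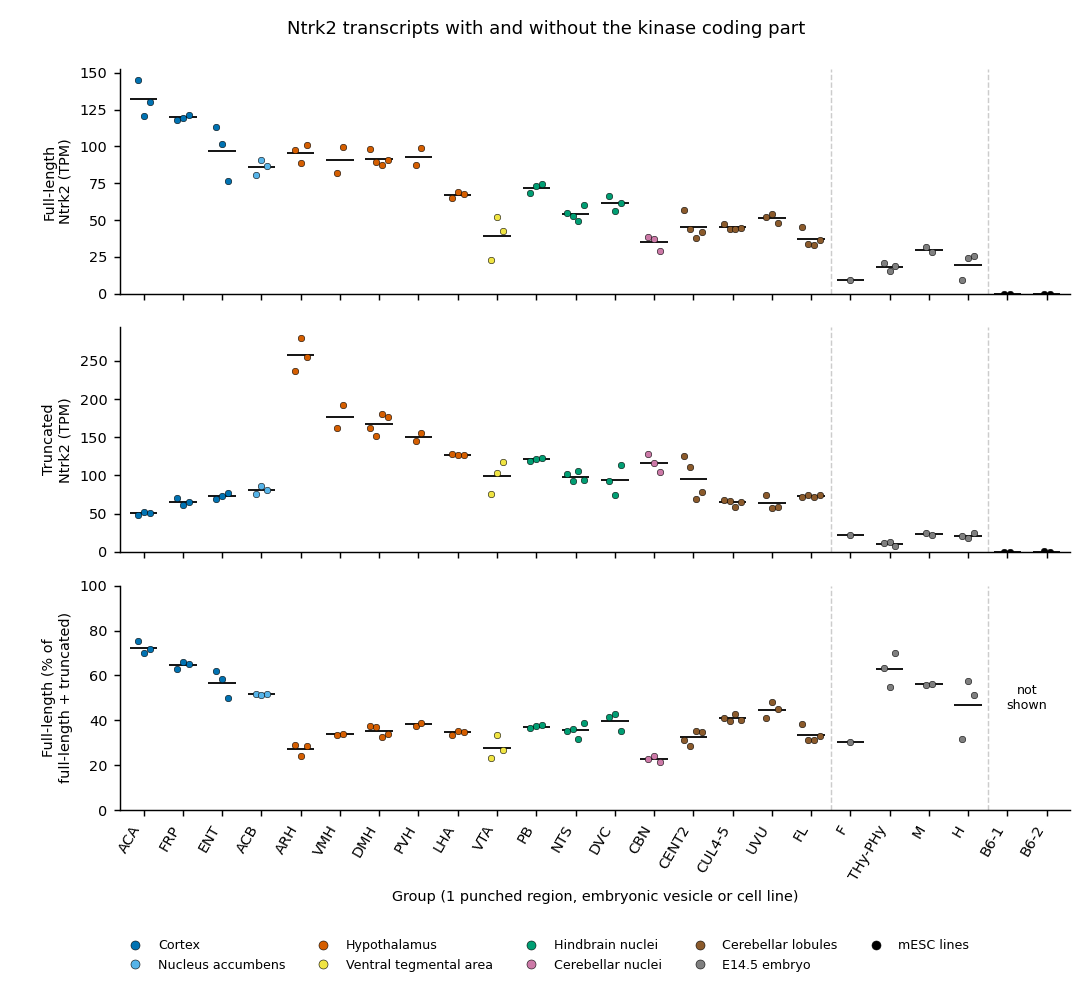
Full-length Ntrk2 in TPM, truncated Ntrk2 in TPM and full-length as % of both (y axes, linear, from 0) in 24 groups (x axis); points are libraries, bars are group means, and the share is not drawn for the mESC lines, where both kinds together stayed under 1 TPM. The share falls from 70.0% to 75.2% in ACA to 24.1% to 29.2% in ARH, and full-length TPM runs from 88.6 to 101 in ARH against 121 to 145 in ACA.

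By summed TPM, astrocyte markers and truncated Ntrk2 were not highest in the same adult regions. The summed TPM of 9 astrocyte markers ran from 1751 to 2225 in cortex (median 1930), from 2088 to 2889 in hypothalamus (median 2518) and from 3210 to 6784 in the lobules (median 4268), where truncated Ntrk2 ran from 57.7 to 126 TPM (median 71.8) against 127 to 280 TPM in the hypothalamus. None of the 9 markers was at 0 throughout a group. Singly, 3 of the 9 were called higher and 1 lower in the lobules (18% of all genes called). In hypothalamus none was called (8.84% of all genes), and in cortex 2 were lower and none higher (16.1%). A sum follows its most abundant markers. Across the 18 adult group means, which share region and depth, truncated Ntrk2 had Pearson's r of -0.16 with the astrocyte sum and -0.85 with the sum of 4 neuronal markers, while full-length Ntrk2 had -0.78 and -0.07. These are descriptions over group means, and the part of cell composition in the Ntrk2 differences was not tested.

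Ntrk3, which encodes TrkC, was highest in the cerebellar lobules on the TPM scale. UVU libraries held 141, 147 and 139 TPM, CENT2 libraries 102, 88.2, 130 and 101 TPM, CUL4-5 libraries 90.8, 93.6, 96.2 and 83.2 TPM, and FL libraries 120, 86.3, 79.9 and 73.4 TPM. UVU stood above every other library of the series, the other 3 lobules overlapped with each other, and CUL4-5 and FL, but not CENT2, overlapped with cortex, whose 9 libraries ran from 52.6 to 88.0 TPM. The order below UVU depends on the scale. As CPM scaled by TMM, UVU stayed first (mean 564), and ACA (363) came before CENT2 (360), CUL4-5 (337) and FL (314). Against the other adult regions Ntrk3 was 1.77-fold higher in the lobules (0.82 ± 0.05, adjusted p = 1.01e-20) and 1.62-fold higher in UVU than in CENT2 and CUL4-5 (0.69 ± 0.11, adjusted p = 2.29e-05, edgeR), both under the fold limit. UVU thus had the highest group means of both Ntf3 and Ntrk3 on the TPM scale, in the same 3 libraries.

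In the cerebellar nuclei, which lie beneath those lobules, Ntrk3 was 36.4, 38.4 and 43.4 TPM, below all 15 lobule libraries. It was 2.51-fold lower in CBN (-1.33 ± 0.12, adjusted p = 1.91e-13, edgeR), so that Bdnf, Ntf3 and Ntrk3 were all called lower in the nuclei, while Ntrk2 was 1.38-fold higher in CBN (0.47 ± 0.08, adjusted p = 4.18e-06) and Ngfr 1.79-fold higher (0.84 ± 0.25, adjusted p = 0.00351, edgeR), both under the fold limit. Cell type markers also moved in CBN, where 16.5% of all genes were called. All 4 choroid plexus (median log2 fold change 4.67), 4 hindbrain (5.00) and 7 oligodendrocyte markers (2.45) were higher. All 3 granule cell (-2.89) and 3 Purkinje markers (-2.83) were lower. The part of cell composition and neighbouring tissue in these differences was not tested.

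The full-length share of Ntrk3 spanned a narrower range over the adult libraries than that of Ntrk2. Full-length Ntrk3 (Ntrk3-201, Ntrk3-205 and Ntrk3-206, of full kinase length) made up 35.4% to 53.96% of full-length plus truncated Ntrk3 (Ntrk3-202) in the 57 adult libraries (median 43.1%; highest 50.6% without VTA replicate 1), where Ntrk2 ran from 21.5% to 75.2%. Neither Ntrk3-201 nor Ntrk3-202 was called as a share in any of the 10 adult comparisons, where the share of all transcripts called ran from 0.908% in UVU, 1.34% in VMH, 2.83% in ENT and 5.84% in the hindbrain nuclei to 12.1% in VTA and 12.8% in the lobules, with log2 differences of Ntrk3-201 from -0.45 ± 0.23 in CBN to 0.26 ± 0.12 in cortex. Of the 12 Ntrk3 transcripts tested, others were called as shares in 3 of these comparisons, 3 higher and 1 lower in the lobules, 1 lower in cortex (7.73% of all transcripts) and 1 higher in VTA. At the level of transcripts Ntrk3-201 was lower in CBN by 1.34 ± 0.16 (adjusted p = 4.73e-09, edgeR, 7.81% of all transcripts called), and Ntrk3-202 gave -0.89 ± 0.15 (adjusted p = 1.73e-05). The difference between Ntrk2 and Ntrk3 in this respect was not tested.

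Ngfr, which encodes p75, had its lowest levels in cortex, where Bdnf had its highest. ACA libraries held 0.324, 0.122 and 0.103 TPM, ENT libraries 0.502, 0.681 and 0.364 TPM, and FRP libraries 0.454, 0.575 and 1.01 TPM. Over the 9 cortical libraries Ngfr ran from 0.103 to 1.01 TPM (median 0.454), against 0.629 to 19 TPM (median 3.46) in the other 48, with 1 FRP library and 1 ENT library inside the range of the rest. Ngfr was 8.02-fold lower in cortex (-3.00 ± 0.22, adjusted p = 2.54e-17, edgeR).

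The highest adult levels of Ngfr were in FL and PB. FL libraries held 8.16, 10.9, 19 and 17.3 TPM and PB libraries 10.1, 10.2 and 9.02 TPM, and these groups overlapped with each other and with LHA (13.7, 6.18 and 5.21 TPM). CENT2 (0.629 to 1.33 TPM) and CUL4-5 (1.68 to 2.69 TPM) lay below every FL and UVU library. Ngfr was 3.14-fold higher in UVU, at 5.13, 3.82 and 5.43 TPM, than in CENT2 and CUL4-5 (1.65 ± 0.28, adjusted p = 5.27e-05, edgeR), and with Ntf3 it made 2 of 5 members called in UVU, where 1.31% of all genes were called. Markers of neighbouring tissue were also higher in UVU, 2 of 4 for hindbrain (median log2 fold change 4.75) and 2 of 4 for choroid plexus (2.86). The summed TPM of the hindbrain markers ran from 0.52 to 11.7 in UVU, 0.58 to 9.33 in CENT2 and 0.57 to 2.40 in CUL4-5, where 2 of the 4 were at 0 throughout, and that of the choroid plexus markers from 9.96 to 2102 in UVU, 11.5 to 30.1 in CENT2 and 6.87 to 10.3 in CUL4-5. Their part in the Ngfr difference was not tested, and Ngfr stayed called in UVU without any 1 library (1.56 to 1.79). In the 10 libraries of the hindbrain nuclei Ngfr ran from 2.11 to 10.2 TPM (median 5.40), against 0.103 to 19 TPM (median 2.28) elsewhere in the adult, and it was 2.60-fold higher (1.38 ± 0.14, adjusted p = 4.91e-12, edgeR), 1 of 5 members called (7.84% of all genes).

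Cholinergic markers also varied between the FL libraries, where the summed TPM of the 3 markers ran from 0.43 to 37.4. FL replicate 1 was the lowest FL library for Ngfr and the highest for Ntf3 and Ntrk3. FL replicates therefore differed among themselves, and whether the punches took unequal amounts of neighbouring tissue was not tested.

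Between E14.5 and the adult the receptors Ntrk2 and Ngfr moved in opposite directions in hypothalamus and hindbrain. THy-PHy libraries held 35.7, 30.9 and 30.8 TPM of Ntrk2, below every adult hypothalamic library (195 TPM and above), and 15.9, 10.6 and 27.9 TPM of Ngfr, against 0.973 to 13.7 TPM (median 3.09) in the adult hypothalamus. The ages did not overlap for Ntrk2, and for Ngfr 1 THy-PHy library lay below 1 LHA library. Ntrk2 was 8.19-fold lower in THy-PHy than in the adult hypothalamic regions (-3.03 ± 0.11, adjusted p = 4.23e-30), Ngfr 5.50-fold higher (2.46 ± 0.23, adjusted p = 4.43e-14), and Bdnf, at 0.924, 1.13 and 1.83 TPM, 4.96-fold lower (-2.31 ± 0.30, adjusted p = 1.09e-09, all edgeR). Thus 3 of 5 members were called, and 38.2% of all genes were. Ntf3 did not pass the test (0.66 ± 0.49, adjusted p = 0.241), and Ntrk3 was 1.62-fold lower (-0.70 ± 0.12, adjusted p = 5.35e-07, edgeR), under the fold limit. The study lists batches of sample collection and preparation by region, with no key to replicate numbers, and embryonic and adult regions fall in separate batches, so that age and batch cannot be told apart.

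Markers of meningeal fibroblasts moved with Ngfr: all 5 were higher in THy-PHy (median log2 fold change 4.31) and in H (5.20). Their summed TPM ran from 551 to 785 in THy-PHy and 514 to 1054 in H, against at most 154 in any adult hypothalamic library and 78.4 in any library of the adult hindbrain nuclei, and none was at 0 throughout a group. Markers of embryonic progenitors and young neurons rose as well, 4 of 4 in THy-PHy (median log2 fold change 4.85) and 3 of 4 in H (5.24). The part of either list in the Ngfr differences was not tested.

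In the hindbrain the same 3 members were called (44.0% of all genes were). H libraries held 36.9, 47.6 and 55.98 TPM of Ntrk2, against 133 to 205 TPM in the adult hindbrain nuclei, 1.62, 2.42 and 2.08 TPM of Bdnf and 9.67, 18.8 and 27.8 TPM of Ngfr. The ages did not overlap for Ntrk2, NTS replicate 3 stood level with the highest H library for Bdnf (2.42 TPM each), and the ages overlapped for Ngfr by 2 adult libraries and 1 H library. Ntrk2 was 3.73-fold lower in H (-1.90 ± 0.10, adjusted p = 6.79e-23), Bdnf 2.33-fold lower (-1.22 ± 0.28, adjusted p = 0.000124) and Ngfr 3.69-fold higher (1.88 ± 0.24, adjusted p = 7.6e-10, all edgeR). Without H replicate 1, the shallow library, the 3 values were -1.85, -1.19 and 2.09. Ntf3 was 3.35 TPM in H replicate 1 and 0.319 and 0.387 TPM in the others, so its log2 fold change of 0.89 ± 0.52 (adjusted p = 0.122) became -1.20 (adjusted p = 0.0791, edgeR) without that library.

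The fall of Ntrk2 towards the embryo was steeper in hypothalamus than in hindbrain. The difference of the 2 age effects was -1.13 ± 0.13 for Ntrk2 (adjusted p = 1.64e-09) and -1.09 ± 0.38 for Bdnf (adjusted p = 0.0262, edgeR), 2 of 5 members called (9.84% of all genes), and the other 3 members did not pass the test. The value for Ntrk2 held without H replicate 1 (-1.18, adjusted p = 5.12e-09), and so did that for Bdnf (-1.12, adjusted p = 0.0441, edgeR). The call for Bdnf was lost without H replicate 2 (-0.89, adjusted p = 0.114), without THy-PHy replicate 1 (-0.86, adjusted p = 0.139) and without THy-PHy replicate 2 (-1.03, adjusted p = 0.0596, all edgeR).

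Truncated Ntrk2 fell more than full-length Ntrk2 in the embryonic libraries. Truncated Ntrk2 was 12.1, 12.4 and 7.93 TPM in THy-PHy, against 127 to 280 TPM in the adult hypothalamus, and full-length Ntrk2 was 20.7, 15.1 and 18.7 TPM, against 64.7 to 101 TPM. In H truncated Ntrk2 was 20.9, 17.9 and 24.6 TPM and full-length Ntrk2 9.63, 24.1 and 25.7 TPM, against 75.1 to 123 TPM and 49.5 to 74.7 TPM in the adult hindbrain nuclei. No library overlapped between ages for either kind. The full-length share was 63.1%, 54.98% and 70.2% in THy-PHy, above all 14 adult hypothalamic libraries (24.1% to 38.8%), while H libraries spread over 31.6%, 57.4% and 51.1%, of which H replicate 1 lay just below the adult range of 31.7% to 42.7% and the other 2 above it. F, a single library, had a full-length share of 30.45%, and the M libraries had 55.9% and 56.2%. Neither F nor M was set against an adult region.

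As levels Ntrk2-202 fell by 4.37 ± 0.17 on the log2 scale from adult to embryonic hypothalamus (adjusted p = 1.84e-26) and Ntrk2-201 fell by 2.22 ± 0.16 (adjusted p = 7.33e-17, edgeR, 23.5% of all transcripts called). In the hindbrain the values were -2.74 ± 0.16 (adjusted p = 2.53e-20) and -1.51 ± 0.15 (adjusted p = 6.24e-12, edgeR, 31.6% of all transcripts called). The difference of the age effects was called for Ntrk2-202 (-1.63 ± 0.19, adjusted p = 3.43e-08, edgeR), 1 of 8 Ntrk2 transcripts (2.58% of all transcripts), and stayed under the fold limit for Ntrk2-201 (-0.71 ± 0.19, adjusted p = 0.0189). Without H replicate 1 the hindbrain values were -2.94 (adjusted p = 1.46e-18) for Ntrk2-202 and -1.29 (adjusted p = 3.89e-09) for Ntrk2-201, and the differences of the age effects -1.42 (adjusted p = 1.53e-06) and -0.93 (adjusted p = 1.21e-03, all edgeR). Ntrk2-204, which encodes the same 476 residues and has no 31-base word of its own, was called higher in both embryonic comparisons, so the sums over both truncated transcripts are given above.

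Astrocyte markers moved with age in the same libraries. Their sum was 180 to 220 TPM in THy-PHy and 244 to 512 TPM in H, against 2088 to 2889 TPM in the adult hypothalamus and 3087 to 4113 TPM in the adult hindbrain nuclei. The part of astrocyte number in the rise of truncated Ntrk2 was not tested.

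The mESC lines expressed p75 and almost none of the other members. B6-1 libraries held 6.49 and 7.87 TPM of Ngfr and B6-2 libraries 6.58 and 6.63 TPM, within the range of the embryonic groups (7.47 to 27.9 TPM) for 1 library and below it for the other 3. Ntrk2 was 1.09, 0.834, 1.01 and 0.756 TPM, Ntrk3 1.67, 1.05, 0.945 and 1.49 TPM, Bdnf 0.234, 0.259, 0.441 and 0.214 TPM, and Ntf3 0.129, 0.134, 0 and 0.0930 TPM in the same order of lines. Against the mean of the 4 embryonic groups Ntrk2 was 61.9-fold lower (-5.95 ± 0.13, adjusted p = 1.12e-40), Ntrk3 65.2-fold lower (-6.03 ± 0.16, adjusted p = 3.69e-36), and Ntf3 and Bdnf were also called lower (-3.20 ± 0.74, adjusted p = 0.000113, and -1.53 ± 0.36, adjusted p = 0.000131, all edgeR). With 4 of 5 members called, 55.8% of all genes were called in this comparison. Ngfr was 1.61-fold lower (-0.69 ± 0.25, adjusted p = 0.0106, edgeR), under the fold limit. The study extracted RNA from the mESC lines and from the punches with different kits, so that cell source and extraction cannot be told apart.

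**Figure D4:**
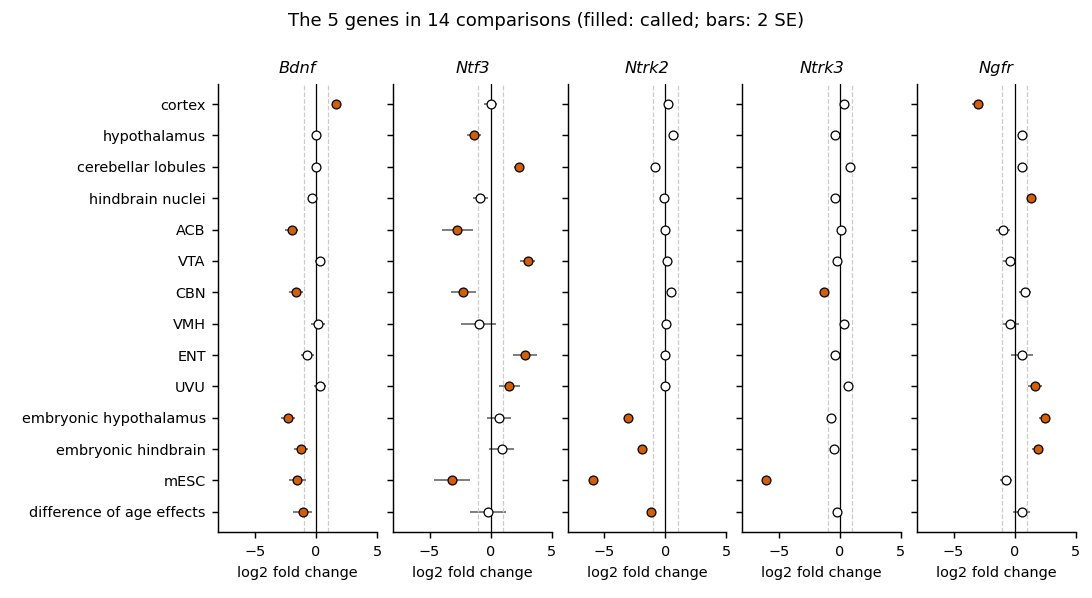
Log2 fold change (x axis) of the 5 genes (panels) in 14 comparisons (y axis), with bars of 2 SE; filled points were called and dashed lines mark the fold limit. Ntrk2 and Ntrk3 were called in no adult comparison except Ntrk3 in CBN, Ntf3 was called in 8 of 14, and Bdnf and Ntrk2 were lower and Ngfr higher in both comparisons of embryonic with adult tissue.

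Of the other ligands and receptors, Ntf5, the other TrkB ligand (NT-4), was under 1 TPM in every brain library and 2.10, 2.10, 2.85 and 3.10 TPM in the mESC lines. Sort1, the sortilin that binds precursor neurotrophins together with p75, was 2.57-fold higher in cortex (1.36 ± 0.04, adjusted p = 4.79e-35, edgeR), where p75 itself was lowest. Its relatives Sorcs1 and Sorcs2 were lower in the lobules (-1.51 ± 0.06, adjusted p = 4.26e-28, and -1.73 ± 0.10, adjusted p = 3.63e-21, edgeR), and Sorcs3 was higher in cortex (1.02 ± 0.07, adjusted p = 1.8e-18, edgeR). Sorcs1 was also 2.31-fold lower in ENT than in ACA and FRP (-1.21 ± 0.13, adjusted p = 1.44e-09, edgeR), the one receptor of the list called there, where Ntf3 was the one ligand.

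Genes known to respond to neuronal activity and BDNF were called higher both in cortex, where Bdnf was high, and in ACB, where it was low. Of the 12 in the list, 9 were higher in cortex and none lower, where 16.1% of all genes were called. The median log2 fold change of the 12 was 2.61, against -0.03 over all genes. Egr2 (4.91 ± 0.27) and Npas4 (3.09 ± 0.13), both transcription factors of recent activity, led the list. In ACB, where Bdnf was 4.04-fold lower, 6 of 12 were higher and none lower (12.8% of all genes called), Egr2 among them (4.73 ± 0.34). The median there was 1.52, against 0.0 over all genes. In the hindbrain nuclei 6 of 12 were lower (7.84% of all genes called), with a median of -1.11, against -0.004 over all genes. In hypothalamus 2 were higher, among them Nptx2 (2.08 ± 0.10), a synaptic pentraxin, and 2 lower (8.84% of all genes called). The median there was -0.21, against 0.0 over all genes.

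Of the 11 genes tested that cut and pack the precursors, 5 were lower and 1 higher in THy-PHy, where 38.2% of all genes were called, led by Pcsk1 (-3.53 ± 0.21, adjusted p = 2.69e-21), a proprotein convertase, and Vgf (-5.26 ± 0.41, adjusted p = 1.23e-16, edgeR), a neuropeptide precursor induced by BDNF, fell with it. Of 15 genes of the kinase cascade downstream of the receptors, 2 were higher in cortex (16.1% of all genes called), 2 in ACB (12.8%), 1 in the lobules (18%) and none in hypothalamus (8.84%), and none was lower in these 4. Of the 9 partners of p75, 2 were higher and none lower in cortex, where 16.1% of all genes were called. Their median log2 fold change there was -0.104, against -0.033 over all genes. In the mESC lines 6 of the 8 receptors of the list were lower, and of the 24 Trk adaptors 10 were lower and 2 higher, where 55.8% of all genes were called.

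Over the means of the 24 groups on a log scale, the genes with the most similar pattern to each member were Kcnj6 for Bdnf (Pearson's r 0.95), Idh3g for Ntf3 (0.77), Fam19a5 and Cfap36 for Ntrk2 (0.99 each), Cadm3 for Ntrk3 (0.99) and Lrig3 for Ngfr (0.86), among 19820 genes compared. The group means share libraries and stages. Of the first 3 genes for each member, Spearman's rho kept 2 for Bdnf, 1 each for Ntf3 and Ngfr and 0 for Ntrk2 and Ntrk3, and the 18 adult groups alone kept 1 for Bdnf and 0 for the others. Ntf3 had the weakest nearest neighbour of the 5.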

How the data were processed

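Adult punches, embryonic tissue and mESC cultures were sequenced as single reads of 33 cycles. The authors called bases with CASAVA 1.8.2 and ran Kallisto on GRCm38 transcripts, and they deposited estimated counts per transcript and TPM per transcript and per gene, with no depth correction of the counts. Of 109282 transcripts, 98.81% matched a GENCODE M21 gene; the remainder held 0.418% to 0.767% of a library's counts. Estimated counts were summed per gene, rounded and tested with edgeR 4.0.16 (TMM, filterByExpr, quasi-likelihood, two-sided, 1 fit over all 70 libraries, 14 comparisons). Transcript shares were tested with limma 3.58.1 (voom, diffSplice) and transcript levels with edgeR. Calls needed an adjusted p under 0.05 (Benjamini-Hochberg) and a log2 difference over 1 in size. Named were the 5 members, the other ligands and receptors, and up to 3 further pathway genes per comparison with the largest called change. Some genes of the pathway list are not reported here. The members and gene lists were chosen with earlier results of these data known. Alternatives used DESeq2 1.42.0, limma on log2 TPM, other filters, a replicate block and left-out libraries. On simulated counts for the hypothalamus comparison, 200 of 200 genes changed 4-fold were recovered among 17837 tested. The changed genes were drawn from well-counted genes, with 1 fixed spread and no other difference between regions. That recovery therefore gives no measure for low genes such as Ntf3 or for smaller folds.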

Additional observations from a re-analysis of the deposited data

Results flagged for a closer look

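The difference between the age effects of hypothalamus and hindbrain passed the test for 2 members. The log2 change from adult to embryonic tissue in the hypothalamus minus that in the hindbrain was -1.135 for Ntrk2 and -1.089 for Bdnf (edgeR). For Bdnf the call was lost when any 1 of H replicate 2, THy-PHy replicate 1 or THy-PHy replicate 2 was left out (-0.89, -0.86 and -1.03), and for Ntrk2 it held without each library in turn. No library stood apart by Dixon's test in the 35 groups of 4 libraries tested over the 5 genes and the full-length shares of Ntrk2 and Ntrk3, where chance gives about 1 in 20.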

How the results depend on the processing

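Replicate numbers were not treated as pairs: deviations from the group means had a median correlation of 0.006 over 669 pairs with the same number (32 over 0.1) and of -0.002 over 1603 other pairs. As a hint of pairing from the data and not the design, 34 of 69 libraries (49.3%) correlated best with one of their own number, which 29.4% of the candidates carried. With the replicate block 69 of 70 gene results kept their call, Ngfr in ACB was called lower (log2 fold change -1.0), and the level of Bdnf-205 in cortex was lost (1.23, adjusted p = 0.0607, edgeR). DESeq2 kept the call of all 70 gene results, no filter that of 68, a fit without the mESC libraries that of 63 of 65, and limma on TPM that of 62 or 63. In what follows the cause was not tested. Members called went from 1 to 0 in hypothalamus with limma on log2(TPM + 0.5) with either filter, from 2 to 1 in UVU with a pseudocount of 0.1, and from 2 to 1 in the difference of age effects in all 3 TPM fits. Uncalled values that changed sign in TPM fits (pseudocount 0.5, then 0.1) were those of Ntf3 in cortex (-0.102, -0.196) and in the difference of age effects (0.261, 0.554), of Bdnf in the lobules (0.140, 0.174) and VTA (-0.201, -0.185), of Ntrk2 in VTA (-0.396, -0.397) and, with 0.1 alone, of Ntf3 in the embryonic hindbrain (-0.001). Bdnf also changed sign in hypothalamus and lobules with no filter (-0.015 and 0.023) and without the mESC libraries (-0.003 and 0.010). TPM fits moved the median of all genes in VTA by -0.480 to -0.179, in CBN by up to -0.137 and in the mESC lines by up to -0.285. The share of calls that were higher, over all genes, went from 65.4% to between 13% and 15.4% in VTA, from 66.9% to between 43.8% and 46.7% in CBN, from 66.0% to as low as 55% in the hindbrain nuclei, from 53.5% to as low as 42.0% in ENT, from 46.2% to as low as 35.2% in UVU, from 53.7% to as low as 31.6% in VMH, from 48.0% to as low as 37.9% in the mESC lines and from 35.2% to as much as 47.1% in the difference of age effects. Genes called numbered 1059 in hypothalamus and 876 in the hindbrain nuclei at the lowest, against 1767 and 1566, and 187 in VMH, against 294.

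Of 25 named transcript results, 17 kept their call in every alternative run. On log2(TPM + 0.5), the share of Bdnf-201 in hypothalamus (0.432), of Bdnf-205 in the lobules (0.878), of Ntrk2-201 in CBN (-0.323) and of Ntrk2-202 in cortex (-0.819) lost the call, that of Ntrk2-201 in hypothalamus changed sign (0.253), and the transcripts called as shares numbered 3 in cortex, 0 in hypothalamus, 4 in the lobules, 3 in ACB, 1 in VMH and 1 in ENT, against 5, 2, 9, 5, 0 and 3. With no filter they numbered 1 in the hindbrain nuclei, 3 in VMH and 5 in the mESC lines, against 0, 0 and 9, and with no filter Ntrk2-201 in CBN was -0.997. With DESeq2 transcripts called as levels numbered 1 each in hypothalamus, VTA, CBN, VMH and ENT and 3 in the difference of age effects, against 0, 4, 2, 0, 0 and 1. Ntf3 in UVU took place 2 among groups as CPM.

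Leaving out 1 library at a time, members called ran from 1 to 2 in ENT, UVU and the difference of age effects. Uncalled values that changed sign ran from -0.205 to 0.211 for Ntf3 in cortex, from -0.061 to 0.055 for Bdnf in hypothalamus, from -0.049 to 0.057 for Bdnf in the lobules, from -0.195 to 0.446 for Bdnf and from -0.095 to 0.136 for Ntrk2 in VMH, from -0.100 to 0.004 for Ntrk2 in UVU, and from -1.204 to 1.463 for Ntf3 in the embryonic hindbrain and from -0.776 to 1.860 in the difference of age effects. Transcripts called as shares ran from 1 to 3 in hypothalamus, 0 to 1 in the hindbrain nuclei, 3 to 5 in ACB, 1 to 7 in VTA, 0 to 3 in CBN, 0 to 1 in VMH, 0 to 3 in ENT, 5 to 11 and 5 to 12 in the embryonic hypothalamus and hindbrain, 5 to 9 in the mESC lines and 0 to 1 in the difference of age effects. At the transcript level only 8 libraries, replicate 1 of ACB, VTA, CBN, ENT, UVU, VMH, THy-PHy and H, were left out, and the others were not run; counts ran from 0 to 1 in hypothalamus and 1 to 4 in VTA, and went from 11 to 7 in the embryonic hindbrain without H replicate 1. H held place 1 to 3 for Ngfr. Genes called in all went from 2105 to 1491 in VTA without VTA replicate 1 and from 1966 to 1494 in the difference of age effects without H replicate 1. Depth limits Ntf3 and single Bdnf transcripts, of which a library holds few reads.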
